A study of Mus musculus with 128 samples.

Results

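RNA of whole transcriptomes was compared between the brains of old and young adult mice, at 30 against 6 months of age. The 8 libraries are all those of the brain table at these ages, 4 at 30 months and 4 at 6 months, of 16 Brain libraries in all; the series also holds 112 libraries of 7 other tissues, and covers 6, 15, 24 and 30 months. The mice of every group were wild-type C57BL/6J males, and the labels give no treatment, so age is the stated difference. The labels call the tissue Brain without naming a region and do not say whether each library comes from its own animal, so the p-values measure the spread between these libraries. Sequencing depth was 11.5, 12.3, 26.1 and 36.0 M reads in the 4 libraries at 30 months, and ran from 10.1 to 15.7 M reads at 6 months.

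Neurons signal through synapses, and glia support them. Astrocytes clear transmitters, oligodendrocytes wrap axons in myelin, and microglia are resident macrophages that can take on an activated state. Vessels form a barrier to the blood, and the choroid plexus secretes cerebrospinal fluid. Complement and interferon-induced genes belong to innate immunity and are known to be raised in the ageing rodent brain.

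Levels are the authors' normalised read counts, to be compared between libraries for 1 gene, and changes are log2 fold changes at 30 against 6 months ± SE, on log2(value + 1), from limma fitted to all 16 Brain libraries. Adjusted p-values are limma's, by Benjamini-Hochberg over 16190 genes, and "rose" and "fell" stand for an adjusted p under 0.05. Of these genes 7.50% passed, 538 higher (3.32%) and 677 lower (4.18%) at 30 months, with a median change over all genes of 0.0023. Groups that do not overlap, all 4 libraries of one age above all 4 of the other, occurred in 966 genes with 30 months higher and 1134 with 30 months lower. Without 30-month replicate 3, the library with the lowest rank correlation to the others (0.990), 4.98% passed (2.39% higher, 2.60% lower). In bulk tissue, fewer cells of a type and less RNA per cell cannot be told apart.

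Complement genes had some of the highest rises. C4b, a component of the classical pathway, had 3279, 4029, 3593 and 3317 normalised reads at 30 months, against 520.3, 523, 490.3 and 549 at 6 months. The ages lay far apart, and the change was 2.77 ± 0.07 (adjusted p = 1.5e-16). C3, on which all complement pathways converge, had 135, 165, 153 and 101 normalised reads at 30 months, against 24.1, 45.4, 17.5 and 19.2 at 6 months, again without overlap (2.42 ± 0.26, adjusted p = 1.5e-05). Of 16 complement genes 9 rose and 0 fell, with a median change of 0.48. The chains of C1q, which starts the classical pathway and is made by microglia, rose by 0.48 ± 0.09 (C1qa), 0.47 ± 0.07 (C1qb) and 0.41 ± 0.07 (C1qc).

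**Figure D1:**
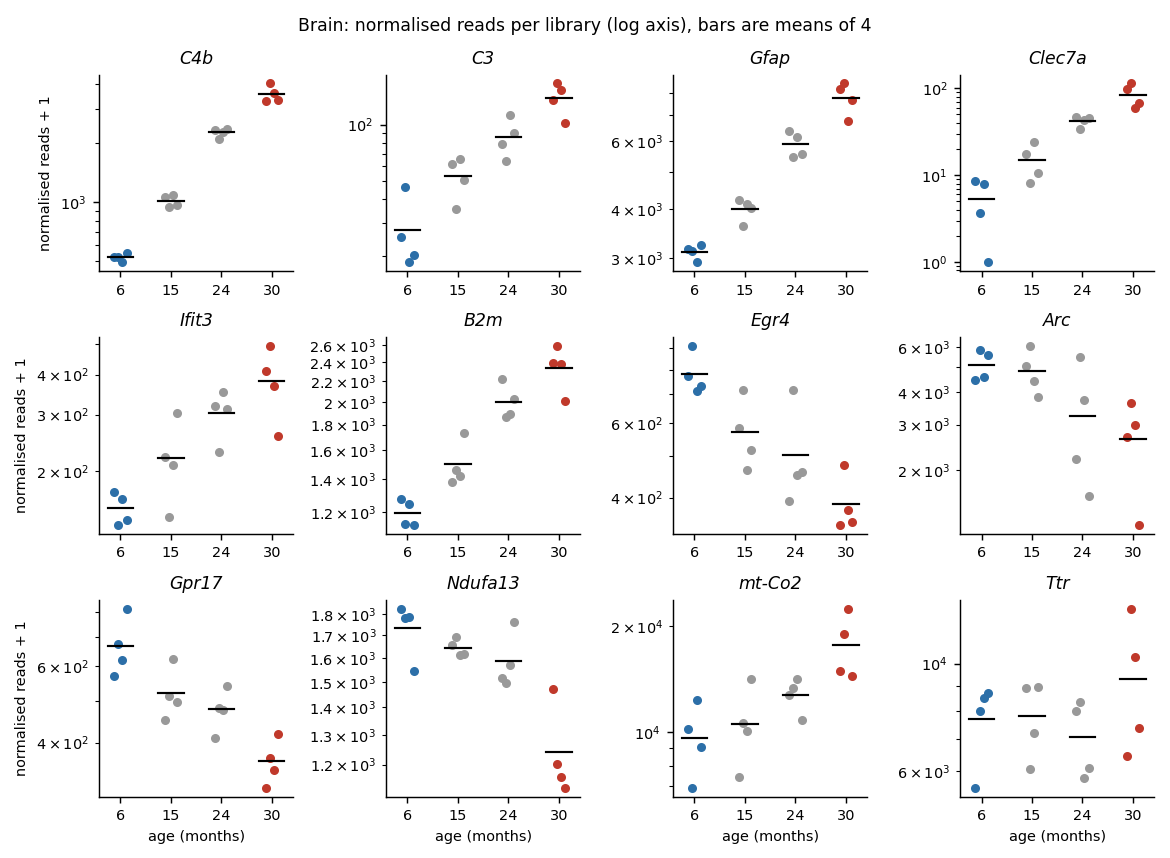
Normalised read counts (log axis, value + 1) of 12 genes in the 16 Brain libraries at 6, 15, 24 and 30 months; points are libraries and bars are means of 4. C4b, Gfap, Clec7a and Ifit3 lie higher in all 4 libraries at 30 months than in the 4 at 6 months, and Egr4, Gpr17 and Ndufa13 lie lower.

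Genes of astrocyte activation rose, while genes of resting astrocytes did not pass. Gfap, the intermediate filament that marks reactive astrocytes, had 8177, 8464, 6766 and 7671 normalised reads at 30 months, against 3169, 3124, 2926 and 3238 at 6 months. All old libraries lay above all young ones (1.31 ± 0.07, adjusted p = 1.1e-10), as they did for the secreted protease inhibitor Serpina3n (1.83 ± 0.09, adjusted p = 3.3e-11) and the filament Vim (0.66 ± 0.09, adjusted p = 2.2e-04). Of 18 reactive astrocyte genes 12 rose and 0 fell, with a median of 0.73, and 8 rose without 30-month replicate 3. Lcn2, a carrier of iron-binding siderophores, had 15.2, 26.8, 186 and 18.5 normalised reads at 30 months, against 5.49, 0, 1.16 and 3.48 at 6 months. Replicate 3 stood above the other old libraries, and Lcn2 had an adjusted p of 0.053 with 6-month library 2 left out and 0.06 with 30-month library 3 left out. Of 20 genes of homeostatic astrocytes 0 passed by limma, edgeR or DESeq2, and at an unadjusted p under 0.05 2 were higher and 3 lower. Among them the water channel Aqp4 had a change of 0.01 ± 0.10 and the glutamate transporter Slc1a2 of 0.04 ± 0.05, and the median was -0.02.

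Genes of activated microglia rose, as did some of those of resting microglia. Clec7a, the receptor dectin-1 of activated microglia, had 97.1, 113, 58.7 and 66.05 normalised reads at 30 months, against 7.68, 2.67, 6.99 and 0 at 6 months. The lowest old library was far above the highest young one (4.36 ± 0.50, adjusted p = 3.0e-05). Lyz2, the lysozyme of macrophages, had 504 to 704 normalised reads at 30 months and 149.8 to 198 at 6 months (1.76 ± 0.12, adjusted p = 2.2e-08). Of 24 genes of activated microglia 16 rose and 0 fell, with a median of 0.68, among them Gpnmb, a glycoprotein of lipid-laden phagocytes (1.96 ± 0.18), and the integrin Itgax (3.36 ± 0.50).

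Of 18 homeostatic microglia genes 5 rose, with a median of 0.16. Among them were the lysosomal protease Ctss (0.79 ± 0.07), the lipid receptor Trem2 (0.65 ± 0.10), its adaptor Tyrobp (0.59 ± 0.15) and the lysosomal membrane protein Laptm5 (0.41 ± 0.08). Tyrobp had an adjusted p of 0.051 with 6-month library 2 left out, 0.06 with 6-month library 3 left out and 0.058 with 30-month library 2 left out. The receptors that mark resting microglia did not pass: P2ry12 had 0.11 ± 0.11, Tmem119 -0.08 ± 0.11 and Cx3cr1, the fractalkine receptor, 0.25 ± 0.11. The summed homeostatic genes were at 11451, 12208, 8928 and 11359.9 at 30 months, against 8978, 8964, 9224 and 9086 at 6 months. Replicate 3 was lowest at 30 months, and without it Cx3cr1 passed (adjusted p = 0.0050). Of 23 lysosome genes 11 rose and 23 changes were above 0, with a median of 0.20. The glycan-trimming mannosidase Man2b1 rose by 0.47 ± 0.05 and the protease Ctsd by 0.30 ± 0.05.

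Interferon-induced genes rose together. Ifit3, an antiviral protein, had 411, 489.5, 367 and 256 normalised reads at 30 months, against 171, 135, 162 and 139 at 6 months, with no overlap (1.29 ± 0.20, adjusted p = 4.4e-04). Of 27 members tested 22 rose and 27 had a change above 0, with a median of 1.11. Oasl2, of the antiviral oligoadenylate synthetase family, rose by 1.59 ± 0.23. Of 16 genes of class I histocompatibility 13 rose, with a median of 0.99. B2m, which pairs with every class I heavy chain, had 2005 to 2584 normalised reads at 30 months and 1132 to 1277 at 6 months (0.96 ± 0.08, adjusted p = 3.6e-07). H2-Q6 and H2-Q7 rose by 3.30 ± 0.43 and 2.88 ± 0.36; they are near-identical copies that can share reads, so their separate values are uncertain. The summed interferon genes were at 4641, 5198, 4412 and 3641 at 30 months, against 2918, 2551, 2579.6 and 2503 at 6 months, with 30-month replicate 4 lowest of its age and still above every young library.

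Class II histocompatibility genes had changes above 0, and few markers of T and NK cells could be tested. Of 6 class II genes 1 rose, Cd74, the invariant chain (1.19 ± 0.16), and 6 changes were above 0, with a median of 0.58. By DESeq2 2 rose, and at an unadjusted p under 0.05 5 were higher and 0 lower. The summed class II genes were at 628, 659, 470 and 477 at 30 months, against 370, 371, 383 and 329 at 6 months, without overlap. Igkc, an immunoglobulin light chain gene, had 36.4, 18.3, 24.4 and 35.0 normalised reads at 30 months, against 5.49, 9.34, 3.49 and 8.71 at 6 months (1.95 ± 0.38, adjusted p = 0.003). Of 15 B and plasma cell markers 6 could be tested, of which Igkc was the 1 that rose and 0 fell. The summed list overlapped between the ages, at 1596 to 1885 at 30 months and 1549 to 1976 at 6 months. Of 20 T and NK cell markers 4 could be tested. The defining Cd3d had at most 1.41 normalised reads at 30 months and 1.33 at 6 months. The list's 1 called member was Thy1 (-0.20 ± 0.04), which neurons also express. Whether lymphocytes have a part in the rise of Igkc was not tested.

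Promoters of the interferon and class I genes were searched on both strands for the core of the interferon-stimulated response element, to which STAT and IRF factors bind, spelled as GAAA, any 2 bases and GAAA again. Shown are 3 genes of the results above: an interferon gene and the class I light chain, whose promoters hold the motif, and H2-Q6, a class I heavy chain, whose promoter does not. They are from RefSeq on GRCm38.p6, from 250 bases before to 50 after the gene's start, on the gene's strand with the matches in capitals (TTTC, 2 bases and TTTC where the match is on the other strand).
Ifit3 (chr19:34583279-34583578, plus strand): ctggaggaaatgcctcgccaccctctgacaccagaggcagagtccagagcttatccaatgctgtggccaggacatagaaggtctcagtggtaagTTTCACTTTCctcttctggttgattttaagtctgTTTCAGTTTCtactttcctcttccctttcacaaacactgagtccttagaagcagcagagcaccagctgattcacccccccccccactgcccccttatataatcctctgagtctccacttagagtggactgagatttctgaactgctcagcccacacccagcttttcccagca
B2m (chr2:122147437-122147736, plus strand): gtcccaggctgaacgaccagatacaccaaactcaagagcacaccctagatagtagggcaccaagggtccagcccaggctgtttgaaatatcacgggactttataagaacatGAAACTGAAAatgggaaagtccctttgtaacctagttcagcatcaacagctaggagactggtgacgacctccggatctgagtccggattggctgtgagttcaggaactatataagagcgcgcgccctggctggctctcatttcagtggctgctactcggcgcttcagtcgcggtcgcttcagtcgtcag
H2-Q6 (chr17:35424600-35424899, plus strand): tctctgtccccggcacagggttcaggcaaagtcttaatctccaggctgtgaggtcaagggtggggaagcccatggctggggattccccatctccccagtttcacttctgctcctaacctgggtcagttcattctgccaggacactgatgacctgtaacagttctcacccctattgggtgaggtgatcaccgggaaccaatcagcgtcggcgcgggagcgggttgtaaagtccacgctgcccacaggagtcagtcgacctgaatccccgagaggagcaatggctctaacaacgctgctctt
The motif was in 3.99% of 27025 listed promoters and in 3.56% of the 11994 matched to genes tested in Brain. It was in 15 of 21 matched interferon genes (71.4%), in 3 of 14 class I genes (21.4%) and in 1 of 12 complement genes (8.33%). Of 382 matched genes that rose 10.7% held it, and of 530 that fell 3.58%. The interferon list consists of genes already known to be induced by interferon, and a match does not show that a site is used. Only this exact spelling was searched, so a promoter without a match, such as that of H2-Q6, can still hold a variant form of the element.

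Among neuronal genes, those that neurons switch on with electrical activity changed most. Egr4, an activity-induced transcription factor, had 344, 475, 374 and 349.7 normalised reads at 30 months, against 773, 907, 710.4 and 733 at 6 months. The groups did not overlap (-1.02 ± 0.15, adjusted p = 4.3e-04). Egr1, of the same family, had 3106, 4222, 3836 and 3328 normalised reads at 30 months, against 4784, 6001, 6129 and 6366 at 6 months (-0.69 ± 0.14, adjusted p = 0.0059), also without overlap. Arc, which drives the removal of glutamate receptors from synapses, had 2672, 3627, 2990.4 and 1221 normalised reads at 30 months, against 4449.9, 5859, 4589.8 and 5603 at 6 months (-1.06 ± 0.31, adjusted p = 0.039). Its lowest value was that of 30-month replicate 4. Of 25 activity-regulated genes 7 fell, namely Egr4, Egr1, Arc, Egr2 (-1.41 ± 0.37), Egr3 (-0.55 ± 0.15), Fosb (-0.59 ± 0.17) and the secreted pentraxin Nptx2 (-0.66 ± 0.13). The median was -0.55 and 24 of the changes were below 0. The immediate early genes Fos (-0.81 ± 0.33, adjusted p = 0.16) and Junb (-0.84 ± 0.31, adjusted p = 0.1) did not pass.

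Calls in this group depended on single libraries: the count that fell was 3 with 6-month library 2 left out, and 4 with 6-month library 3, 6-month library 4, 30-month library 1 or 30-month library 4 left out. Arc passed in 1 of the 8 fits without 1 library, with an adjusted p of up to 0.14 when 30-month library 4 was left out. Egr2 passed in 4 of the 8 fits without 1 library, with an adjusted p of up to 0.086 when 30-month library 4 was left out. Egr3 passed in 4 of the 8 fits without 1 library, with an adjusted p of up to 0.092 when 6-month library 4 was left out. Fosb passed in 2 of the 8 fits without 1 library, with an adjusted p of up to 0.11 when 6-month library 2 was left out. Handling of the mice and the hour of collection were not analysed here, and their part was not tested.

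Synaptic genes that fell did so by small amounts. Of 25 genes of vesicle release 5 fell, with a median of -0.07: the vesicle proteins Syp (-0.18 ± 0.04), Syngr3 (-0.30 ± 0.06) and Syngr1 (-0.19 ± 0.04), the fusion protein Stx1a (-0.39 ± 0.08) and the small GTPase Rab3a (-0.14 ± 0.04). Rab3a passed in 2 of the 8 fits without 1 library, with an adjusted p of up to 0.15 when 6-month library 3 was left out. Of 21 postsynaptic density genes 3 fell (median -0.13): the scaffold Dlg4, known as PSD-95 (-0.21 ± 0.04), its partner Dlgap3 (-0.33 ± 0.05) and Nrgn, the calmodulin-binding neurogranin. Nrgn had 10932, 10323, 8109.7 and 9521 normalised reads at 30 months, against 12317, 12046, 13107 and 12509.8 at 6 months (-0.37 ± 0.08, adjusted p = 0.008). The groups did not overlap, and 30-month replicate 3 was lowest.

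Receptor and channel genes showed little change. Of 24 glutamate receptor genes 0 passed by limma, edgeR or DESeq2, with 0 higher and 4 lower at an unadjusted p under 0.05. Of 20 GABA and glycine receptor genes 0 passed by limma, 1 was lower by edgeR and 1 by DESeq2, and 2 were lower at the unadjusted p. Of 33 voltage-gated channel genes the sodium channel subunit Scn2b fell (-0.19 ± 0.05). Scn2b had an adjusted p of 0.061 with 6-month library 2 left out and 0.067 with 30-month library 3 left out. Of 11 genes of perineuronal nets and brain matrix 1 rose, the link protein Hapln2 (0.41 ± 0.09), which mature oligodendrocytes also express, and 2 fell, the proteoglycans Bcan (-0.21 ± 0.05) and Ncan (-0.30 ± 0.09), with a median of 0.00. Ncan had an adjusted p of 0.086 with 6-month library 2 left out, 0.11 with 6-month library 4 left out and 0.11 with 30-month library 3 left out. With GC content and length corrected Bcan did not pass (adjusted p = 0.116), and neither did Rab3a (adjusted p = 0.0602).

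Few markers of neuronal classes passed. Over 153 tested markers of cortical, hippocampal, interneuron, striatal, cerebellar, thalamic, olfactory, monoaminergic, cholinergic and hypothalamic neurons 1 rose and 5 fell, with a median of -0.05, so 3.92% passed beside 7.50% of all genes. Those that fell were the deep-layer cortical genes Crym, which encodes a thyroid hormone-binding protein, Rprm (-0.41 ± 0.09) and Hs3st4 (-0.25 ± 0.07), and the hippocampal genes Plk5 (-0.41 ± 0.09) and Bok (-0.26 ± 0.08). Crym had 814, 734, 740.2 and 741 normalised reads at 30 months, against 1027, 1062, 988 and 1181 at 6 months, without overlap (-0.49 ± 0.09, adjusted p = 0.0015). Hs3st4 passed in 2 of the 8 fits without 1 library, with an adjusted p of up to 0.1 when 6-month library 1 was left out. Bok passed in 1 of the 8 fits without 1 library, with an adjusted p of up to 0.17 when 6-month library 3 was left out. With GC content and length corrected neither Plk5 (adjusted p = 0.0504) nor Bok (adjusted p = 0.38) passed. The neuropeptide Npy of interneurons rose (0.25 ± 0.07, adjusted p = 0.032). Npy passed in 2 of the 8 fits without 1 library, with an adjusted p of up to 0.086 when 30-month library 2 was left out.

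Medians differed between the classes. The median was -0.29 for cerebellar granule cells, with 11 of 12 changes below 0, -0.23 for hypothalamic neurons (9 of 10) and -0.15 for Purkinje cells (10 of 11). It was 0.02 for upper-layer, 0.02 for interneuron and 0.02 for striatal genes. Against the same 6-month libraries the cerebellar granule median was already -0.35 at 15 and -0.33 at 24 months. The hypothalamic median was -0.13 and 0.08 at these ages, and the Purkinje cell median -0.09 and -0.17. Among markers that did not pass, the GABA-making enzymes Gad1 and Gad2 had changes of 0.05 ± 0.04 and 0.06 ± 0.06, the striatal dopamine receptors Drd1 and Drd2 of 0.06 ± 0.10 and 0.04 ± 0.11, and the deep-layer transcription factor Tbr1 of 0.01 ± 0.08. Of 10 upper-layer and 16 striatal genes 0 passed by limma, edgeR or DESeq2, with 1 and 2 higher at an unadjusted p under 0.05. Gabra6, the GABA receptor subunit of cerebellar granule cells, had 1.52, 12.7, 219 and 1.46 normalised reads at 30 months, against 456, 81.4, 0 and 0 at 6 months, so high and low libraries occurred at both ages. The summed cerebellar granule genes were at 3996, 4408, 5945 and 4487 at 30 months, against 8060, 5019, 4199.6 and 4338 at 6 months. Of 12 such genes and 11 of Purkinje cells 0 passed by limma, 0 and 1 were lower by edgeR and as many by DESeq2, and 2 and 2 were lower at the unadjusted p. The hypothalamic hormone Oxt had 83.4, 56.4, 33.6 and 46.6 normalised reads at 30 months, against 124, 80.0, 238 and 94.0 at 6 months (-1.21 ± 0.38, adjusted p = 0.061), overlapping. The part of dissection in the values of regional markers was not tested.

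**Figure D2:**
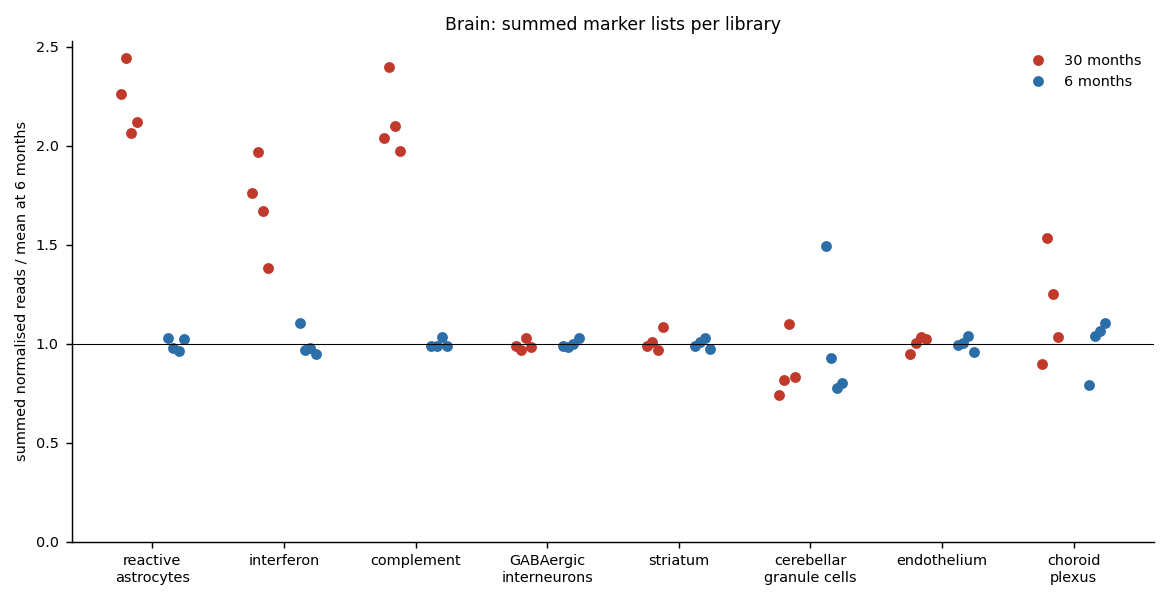
Summed normalised read counts of 8 marker lists in each library, divided by the mean of the 6-month libraries; in each pair the 4 libraries at 30 months are on the left and the 4 at 6 months on the right. Sums of reactive astrocyte, interferon and complement genes lie apart between the ages, and those of interneurons, striatum, cerebellar granule cells, endothelium and choroid plexus overlap.

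Changes of nuclear genes of oxidative phosphorylation, the chain of complexes that makes ATP in mitochondria, were below 0 in most members, by small amounts. Ndufa13, of complex I, had 1471, 1202, 1159 and 1127 normalised reads at 30 months, against 1823, 1779.7, 1783 and 1541 at 6 months. The groups did not overlap (-0.49 ± 0.07, adjusted p = 4.5e-04). Cyc1, the cytochrome c1 of complex III, had 1771, 1861, 1824 and 1740 normalised reads at 30 months, against 2279, 2181, 2298 and 2229 at 6 months, also without overlap (-0.32 ± 0.04, adjusted p = 1.2e-04), and Atp5e, a small subunit of ATP synthase, fell by 0.48 ± 0.09. By complex, 11 of 37 genes of complex I fell, 6 of 25 of complexes II to IV and 7 of 18 of ATP synthase. Over all 80 genes 24 fell, the median was -0.15, and 77 changes were below 0. The catalytic subunits Sdha (-0.02 ± 0.04), Atp5a1 (-0.01 ± 0.04) and Atp5b (-0.04 ± 0.04) did not pass. The count that fell was 14 with 6-month library 3 or 30-month library 4 left out, and 15 with 6-month library 1 or 30-month library 3 left out. The summed genes were at 168700, 163648, 155909 and 153976 at 30 months, against 179975, 169926, 183861 and 162986 at 6 months, so that the sums overlapped between the ages. In the same libraries the median log2 deviation of the quintile of genes with the shortest transcripts from their 6-month mean was 0.02, -0.02, -0.11 and -0.10 at 30 months, against 0.04, -0.03, 0.06 and -0.05 at 6 months. The deviations of -0.11 and -0.10 and the sums of 155909 and 153976 were those of 30-month replicates 3 and 4. These were sequenced to 26.1 and 36.0 M reads, and replicates 1 and 2 to 11.5 and 12.3 M reads. The sums of replicates 1 and 2 lay within the range of the 6-month libraries. Whether transcript length or depth had a part in the sums was not tested. A fit corrected for GC content and length is given below.

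Messenger RNAs encoded by the mitochondrial genome were also measured. Of 13, 2 rose and 0 fell, with a median of 0.11. mt-Co2, a core subunit of cytochrome oxidase, had 14921, 18933, 22365 and 14403 normalised reads at 30 months, against 10179.6, 6935, 12333 and 9030.1 at 6 months, with no overlap (0.88 ± 0.17, adjusted p = 0.0036). mt-Nd5, of complex I, rose by 0.27 ± 0.07. mt-Nd5 passed in 4 of the 8 fits without 1 library, with an adjusted p of up to 0.066 when 30-month library 1 was left out. With GC content and length corrected it did not pass (adjusted p = 0.0874). mt-Nd1 (0.15 ± 0.06) and mt-Nd2 (-0.01 ± 0.07) did not pass.

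**Figure D3:**
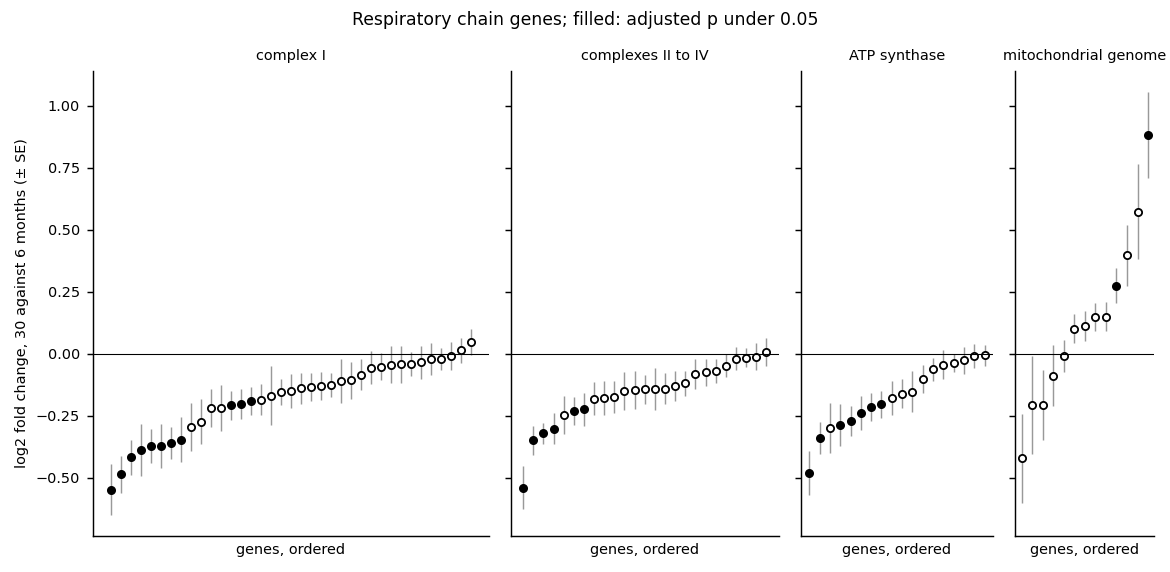
Log2 fold change at 30 against 6 months (bars, SE) of each tested nuclear gene of complex I, complexes II to IV and ATP synthase and of the 13 messenger RNAs of the mitochondrial genome, ordered within each group; filled points passed an adjusted p of 0.05. Of the 80 nuclear genes 77 lie below 0.

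In the other lists of energy and lipid metabolism smaller shares passed than the 30% of the nuclear genes of oxidative phosphorylation. Of 22 glycolysis genes 3 fell: the enzymes Eno2 (-0.14 ± 0.03) and Pgam1 (-0.14 ± 0.04) and the lactate dehydrogenase subunit Ldha, which had 3030, 3119, 2731 and 3133 normalised reads at 30 months, against 3463, 3582, 3915 and 3673 at 6 months (-0.29 ± 0.05, adjusted p = 0.0021). Pgam1 passed in 4 of the 8 fits without 1 library, with an adjusted p of up to 0.087 when 6-month library 3 was left out. Of 24 genes of pyruvate dehydrogenase and the citrate cycle 0 passed by limma or edgeR, 1 was lower by DESeq2, and at an unadjusted p under 0.05 1 was higher and 2 were lower. Of 19 genes of fatty acid and ketone use Acadvl (-0.24 ± 0.07) and Bdh1 (-0.22 ± 0.06) fell. Acadvl passed in 3 of the 8 fits without 1 library, with an adjusted p of up to 0.099 when 30-month library 4 was left out. Bdh1 passed in 1 of the 8 fits without 1 library, with an adjusted p of up to 0.13 when 30-month library 4 was left out. Of 23 cholesterol synthesis genes the sterol reductase Tm7sf2 fell (-0.36 ± 0.09).

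Apod and some genes of iron handling rose. Apod, a lipid-carrying apolipoprotein, had 5644, 6081, 10619 and 5374 normalised reads at 30 months, against 3356, 3115, 3227 and 2442 at 6 months. All old libraries were higher, with replicate 3 highest (1.14 ± 0.15, adjusted p = 1.0e-04). Apod belongs to a list of 17 genes of sterol transport and turnover, of which 3 rose and 1 fell, with a median of 0.05. That is 23.5% beside 7.50% of all genes, and without 30-month replicate 3 it was 11.8% beside 4.98%. Of 12 iron genes 3 rose, the ferritin heavy chain Fth1, which stores iron (0.34 ± 0.05), Cp, which oxidises it (0.65 ± 0.12), and Trf, which carries it (0.42 ± 0.12). Trf passed in 2 of the 8 fits without 1 library, with an adjusted p of up to 0.12 when 30-month library 2 was left out.

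Among genes of protein synthesis and folding some fell. Of 77 ribosomal protein genes 5 fell (median -0.07), which is 6.49% beside 4.18% of all genes. Without 30-month replicate 3 it was 2.60% beside 2.60%. The count was 2 with 6-month library 1, 6-month library 2, 6-month library 3, 30-month library 3 or 30-month library 4 left out, and 8 with 6-month library 4 or 30-month library 1 left out. Of 24 heat shock chaperone genes 5 fell (median -0.15), and the count was 2 with 6-month library 3 or 6-month library 4 left out, and 3 with 6-month library 2, 30-month library 2, 30-month library 3 or 30-month library 4 left out. Atf4, a transcription factor of the integrated stress response, fell by 0.30 ± 0.05 (adjusted p = 0.0015). Of 13 p53 targets and cell cycle inhibitors Phlda3 fell (-0.35 ± 0.08), but not with GC content and length corrected (adjusted p = 0.0899). Cdkn1a, the inhibitor p21, had 169.8, 254, 712 and 251 normalised reads at 30 months, against 161, 267, 316 and 449 at 6 months. The ages overlapped (0.08 ± 0.34), with the highest value in 30-month replicate 3.

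Genes that fell were unevenly spread over base composition. Of the quintile of genes with the highest GC content 11.7% fell, against 0.760% of the quintile with the lowest, and 1.52% against 4.18% rose. Of the quintile with the shortest transcripts 6.91% fell, against 1.24% of the longest. In a fit that removed each library's dependence on GC content and length, chosen after seeing the data, 8.55% of 15785 genes passed, 2.79% higher and 5.76% lower (440 and 909 genes). There the median change over all genes was -0.033, against 0.0023 without the correction. Changes thus stood lower in general, and counts of falls are not like for like with those above. In this fit 42 of 77 nuclear genes of oxidative phosphorylation fell, and 32 when 30-month replicate 3 was also left out. Their median was -0.19, against -0.15 for the 80 genes before. Also falling were 7 of 25 activity-regulated, 5 of 25 presynaptic, 3 of 21 postsynaptic and 16 of 77 ribosomal protein genes, and 1 of the last rose. Without 30-month replicate 3 as well, 5, 4, 3 and 9 fell. Heat shock chaperones that fell numbered 11 of 24 and glycolysis genes 6 of 22. Of 19 genes of fatty acid and ketone use 4 fell and 1 rose, and of 33 voltage-gated channels 4 fell and 1 rose. Without 30-month replicate 3 as well, the falls in these lists were 8, 5, 3 and 3. Some lists without a called member before the correction had a few falls, to be read beside the 5.76% of all genes. They were 3 of 24 citrate cycle genes, 2 of 24 glutamate receptors and 2 of 20 GABA and glycine receptors. Of 20 homeostatic astrocyte genes 2 fell and 1 rose. Falls were also seen in 1 of 10 upper-layer, 1 of 11 Purkinje cell and 2 of 18 fatty acid synthesis and desaturation genes. Without 30-month replicate 3 as well, the falls in these lists were, in order, 2, 1, 0, 2, 0, 0 and 1. Of 129 genes named, 122 kept their direction and side of the threshold under the correction and 6 no longer passed, namely Rab3a, Bcan, Plk5, Bok, mt-Nd5 and Phlda3. Rpl36a, a ribosomal protein gene, passed only with it (adjusted p = 0.0145).

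**Figure D4:**
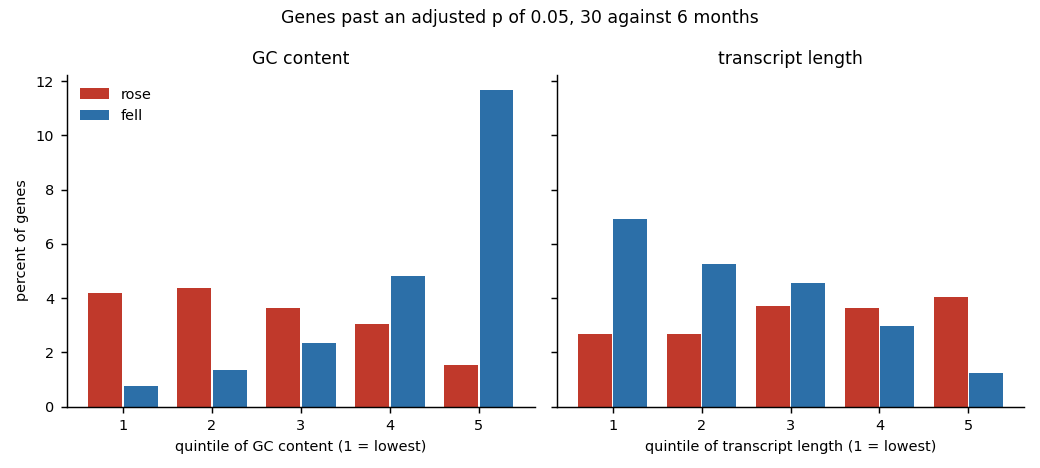
Share of genes (percent) that rose and that fell at 30 against 6 months in quintiles of GC content (left panel) and transcript length (right panel), 1 being the lowest. The share that fell is 0.760% in the lowest and 11.7% in the highest quintile of GC content.

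In the oligodendrocyte lineage a few genes of precursors fell and a few of mature cells rose. Gpr17, a receptor of committed precursors, had 314, 368, 345 and 418 normalised reads at 30 months, against 567, 675, 618 and 812 at 6 months, without overlap (-0.88 ± 0.12, adjusted p = 1.2e-04). Of 22 precursor genes 3 fell, namely Gpr17, the sialidase Neu4 (-0.41 ± 0.10) and the metalloprotease Mmp15 (-0.50 ± 0.10), with a median of -0.04, while Pdgfra, the growth factor receptor of precursors, had 0.05 ± 0.05. Of 24 genes of mature cells 5 rose and 1 fell, with a median of 0.03. Their sum was 155194, 166042, 132923 and 156165 at 30 months, against 144873, 142541, 146713 and 127646 at 6 months, lowest of its age in 30-month replicate 3. Without that library 6 rose and the median was 0.20. Myrf, the transcription factor of myelin genes, had 1356, 1485, 1504 and 1437 normalised reads at 30 months, against 1074, 1194, 1118 and 1127 at 6 months (0.36 ± 0.06, adjusted p = 0.0011), without overlap. Mobp, a myelin protein, rose by 0.27 ± 0.06 and Aspa, which splits N-acetylaspartate, by 0.44 ± 0.09. Mbp, myelin basic protein, did not pass (0.12 ± 0.06).

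A few genes on the list of neuroblasts and dividing cells fell. Of 20 neuroblast and cell-division genes the transcription factors Sox4 (-0.52 ± 0.09) and Sox11 (-0.47 ± 0.13) and the tubulin Tubb3 (-0.21 ± 0.04) fell, and Dcx, which marks migrating neuroblasts, had -0.07 ± 0.14. Sox11 passed in 2 of the 8 fits without 1 library, with an adjusted p of up to 0.13 when 6-month library 4 was left out. Fabp7 and Hes5, known from neural stem cells and astrocytes, fell by 0.88 ± 0.18 and 0.72 ± 0.12.

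Among vessel genes more rose than fell. Of 102 tested genes of endothelium, pericytes, smooth muscle, fibroblasts and basement membrane 7 rose and 3 fell, with a median of 0.08, so 9.8% passed beside 7.50% of all genes. Without 30-month replicate 3 it was 6.86% beside 4.98%. By direction 6.86% rose beside 3.32% of all genes, and 2.94% fell beside 4.18%. Of 11 genes of endothelial activation 2 rose, Vwf and Icam1, and 1 rose without 30-month replicate 3. Of these changes 10 were above 0, with a median of 0.46, and 6 were higher and 0 lower at an unadjusted p under 0.05. Their sum was 1877, 2037, 2377 and 1960 at 30 months, against 1698, 1606, 1621 and 1783 at 6 months, without overlap. Vwf, the clotting factor of endothelium, had 314, 357, 508 and 423 normalised reads at 30 months, against 232, 199, 199 and 251 at 6 months, without overlap (0.84 ± 0.13, adjusted p = 4.3e-04). The surface proteins Ly6a and Ly6c1 rose by 0.72 ± 0.14 and 0.48 ± 0.11, and Itm2a fell by 0.45 ± 0.10. Icam1, which binds leukocytes to activated endothelium, had 74.3, 80.4, 131 and 58.8 normalised reads at 30 months, against 28.5, 29.4, 29.1 and 33.1 at 6 months (1.43 ± 0.42, adjusted p = 0.044). Icam1 passed in 0 of the 8 fits without 1 library, with an adjusted p of up to 0.14 when 30-month library 3 was left out. The barrier protein Cldn5 (-0.23 ± 0.13) and the junction proteins Pecam1 (0.14 ± 0.08) and Cdh5 (0.13 ± 0.11) did not pass.

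Of 11 pericyte genes 0 passed by limma, edgeR or DESeq2, with 1 higher and 1 lower at an unadjusted p under 0.05, and their receptor Pdgfrb had -0.04 ± 0.08. Of 22 fibroblast genes the collagen chain Col6a2 rose (0.35 ± 0.08) and the fibrillar collagen Col3a1 fell (-0.81 ± 0.22), with a median of 0.06 and 17 above 0. Col3a1 passed in 2 of the 8 fits without 1 library, with an adjusted p of up to 0.09 when 30-month library 1 was left out. Of 18 basement membrane genes the laminin chain Lama5 rose (0.34 ± 0.09) and the collagen chaperone Serpinh1 fell (-0.57 ± 0.13), with a median of 0.13. Lama5 passed in 4 of the 8 fits without 1 library, with an adjusted p of up to 0.11 when 6-month library 3 was left out. Red cell genes, a sign of residual blood, summed to 6418, 6588, 4883 and 12631 at 30 months, against 7246, 4392, 5072 and 5894 at 6 months. The highest sum was that of 30-month replicate 4, and the part of blood in the vessel values was not tested.

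In the choroid plexus no gene passed. Ttr, the thyroid hormone carrier secreted by its epithelium, had 6445, 12960, 10336 and 7358 normalised reads at 30 months, against 5549, 7978, 8506 and 8692 at 6 months. The ages overlapped (0.24 ± 0.19, adjusted p = 0.5). Of 25 choroid plexus genes 0 passed by limma, edgeR or DESeq2, 4 were higher at an unadjusted p under 0.05, and the median was 0.13. The co-receptor klotho (Kl) had 0.18 ± 0.19 and the folate receptor Folr1 -0.01 ± 0.32. Of 18 ependymal genes 0 passed by limma or edgeR, 1 was lower by DESeq2 and 1 at the unadjusted p.

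**Figure D5:**
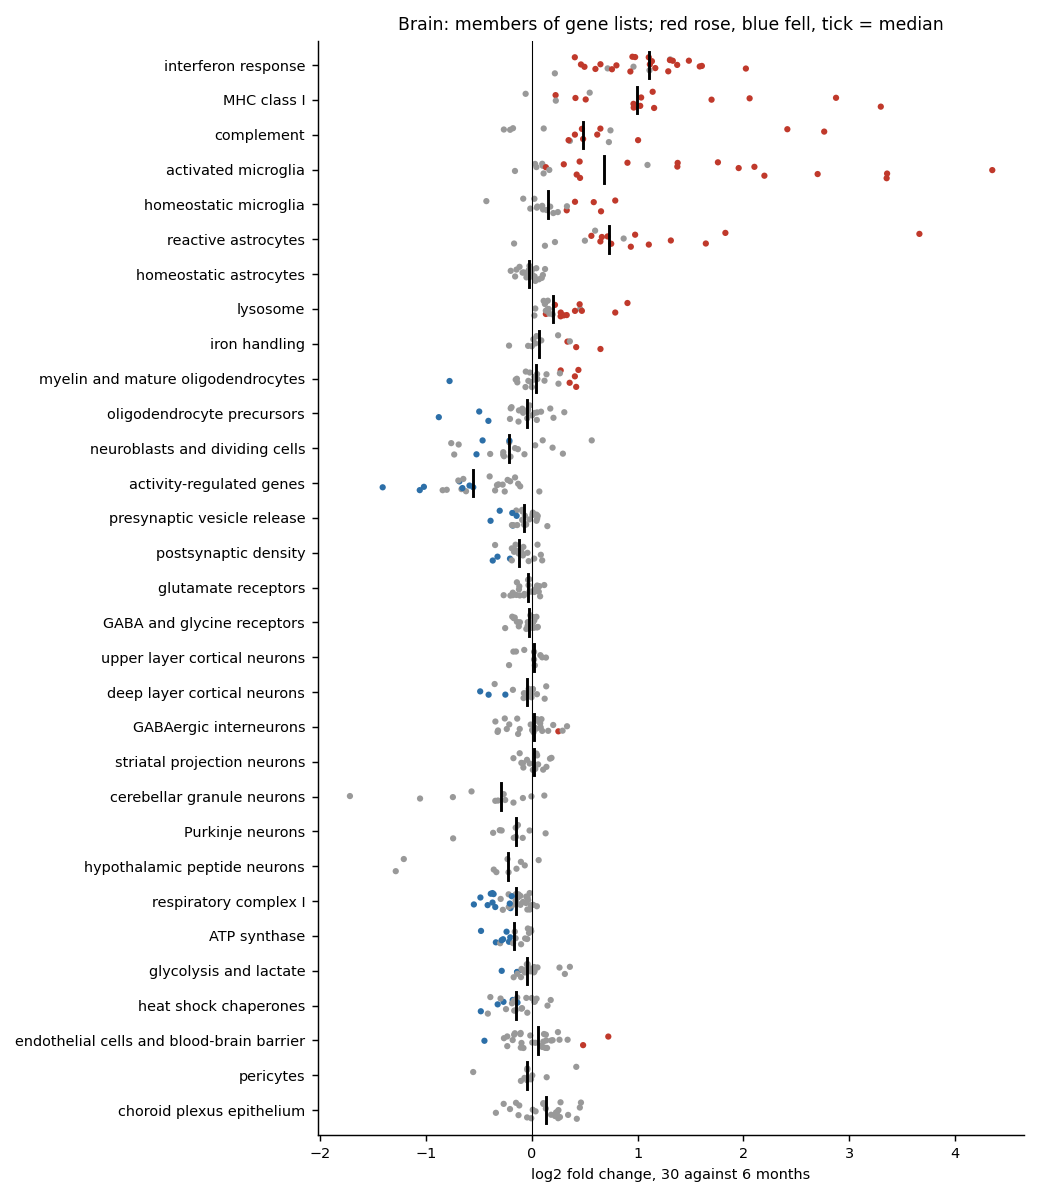
Log2 fold change at 30 against 6 months of each tested member of 31 gene lists; grey points did not pass an adjusted p of 0.05, red points rose, blue points fell, and black ticks are medians. Lists of immune and glial activation lie right of 0, those of activity-regulated, respiratory, cerebellar granule, Purkinje and hypothalamic genes left of 0 in their medians, and upper-layer, interneuron and striatal genes around 0.

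At the earlier ages, which share the 6-month libraries with the comparison above, fewer genes passed: 4 at 15 months (0.0247%) and 108 at 24 months (0.667%). Against 6 months C4b stood at 0.95 at 15, 2.12 at 24 and 2.77 at 30 months. Gfap stood at 0.36, 0.92 and 1.31, and Clec7a at 1.79, 3.39 and 4.36 at the same ages. Egr4 had -0.46, -0.66 and -1.02, and Gpr17 -0.36, -0.48 and -0.88. Ndufa13 had -0.07, -0.13 and -0.49.

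Each gene's change in Brain was also set against the mean change of the other 7 tissues, which were normalised separately, so differences of changes within tissues were compared. Of 21469 genes 152 differed (0.708%), 108 more (0.503%) and 44 less (0.205%) in Brain. C4b changed by 1.74 ± 0.25 more in Brain (adjusted p = 2.8e-06), C3 by 1.55 ± 0.28 (adjusted p = 3.2e-04) and Clec7a by 3.28 ± 0.46 (adjusted p = 1.3e-06). The changes of C4b within the other tissues ran from -0.31 to 2.88. H2-Q6 (1.93 ± 0.35) and mt-Co2 (1.07 ± 0.27) also passed with limma, but with edgeR, by which 67 genes differed, their adjusted p was 0.097 and 0.054. In fits without 1 Brain library mt-Co2 passed in 4 of 8 (adjusted p up to 0.13) and H2-Q7 (1.55 ± 0.35) in 6 of 8 (up to 0.099). In the other lists described, Ggta1, an enzyme of glycan synthesis on the reactive astrocyte list, changed by 0.79 ± 0.19 more in Brain, and so did Lama4 of the basement membrane list (0.59 ± 0.16) and Plin4 of the glucocorticoid list (1.97 ± 0.50). Igfbp2 of the fibroblast list (-1.61 ± 0.39) and the ribosomal protein genes Rps21 (-0.47 ± 0.12), Rpl36a (-0.43 ± 0.11) and Rpl12 (-0.35 ± 0.10) changed by less. These 7 genes were named after their values were seen, and each lost the call in 3 to 7 of the 8 fits without 1 Brain library, and Plin4 stood at 0.99 without 30-month replicate 3. Of genes that passed in Brain, some missed the threshold here: Gfap had 1.25 ± 0.59 (adjusted p = 0.47), Ifit3 0.22 ± 0.42 (adjusted p = 0.96) and Egr4 -0.92 ± 0.41 (adjusted p = 0.41), and a p that misses the threshold does not show that the changes were alike.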

How the data were processed

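RNA was extracted from frozen tissue with RNAiso Plus and sequenced from Illumina Stranded mRNA Prep libraries, per the labels' protocols. The values the authors deposited are read signal per gene scaled between libraries, 1 table for each tissue; the submitters' processing notes name FastQC, STAR, RSEM, DESeq2 and GRCm39, and name no gene annotation. Within 0.01 reads 100% of the Brain values are whole multiples of the value of 1 read, so reads were recovered for depth (10.1 to 36.0 M), a filter (edgeR's filterByExpr, minimum count 10) and count tests; edgeR's quasi-likelihood test called 1273 genes on them and DESeq2 1409. The main test was limma's (limma-trend, version 3.58.1, R 4.3.3) on log2(value + 1) over all 16 Brain libraries with 1 mean per age, two-sided, with Benjamini-Hochberg adjustment and a threshold of 0.05. edgeR 4.0.16 and DESeq2 1.42.0 served as alternatives, and the fits were tested on simulated data. No pair of Brain libraries was a copy of another (chi-square per degree of freedom at least 2.74).

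The Brain change was set against the mean of the other 7 tissues by the same test over all tissues. Genes were named by rule: the 14 highest and 14 lowest called changes without overlap and with a mean of at least 50 reads, and of each list the first 3 members, up to 6 called members with the smallest adjusted p, and members without overlap beyond 1.5-fold. The 64 gene lists and the members were chosen with earlier results of these data known, so they are described by counts and medians and carry no test. GC content and length came from the reference annotation for 97.5% of the genes tested. Promoter sequences are RefSeq's, matched by symbol. Some genes are not reported here by name, and the counts and medians of lists include them.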

Additional observations from a re-analysis of the deposited data

Results flagged for a closer look

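In groups of 4 libraries a single library stood apart from the other 3, by a gap above Dixon's critical value, in 16 of 258 groups checked (129 genes at both ages), and chance gives about 1 in 20. In 30-month replicate 3 the highest value of its age was that of Lcn2 at 186, Gabra6 at 219, Apod at 10619, Cdkn1a at 712, Pdgfra at 981 and Plin4 at 1888 normalised reads. In 30-month replicate 3 the lowest value of its age was that of P2ry12 at 497, Scn2b at 3852 and Ncan at 1903 normalised reads. 30-month replicate 1 was the highest of its age for Crym at 814. 30-month replicate 1 was the lowest of its age for Nptx2 at 437. 30-month replicate 2 was the highest of its age for Atf4 at 2002 and Ly6a at 461. 6-month replicate 3 was the highest of its age for Ly6a at 282. 6-month replicate 3 was the lowest of its age for Ggta1 at 69.9. 6-month replicate 4 was the lowest of its age for Ndufa13 at 1541. No explanation for a single library was tested.

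The log2 change at 30 against 6 months differed in Brain from the mean change of the other 7 tissues, by limma's test of that difference, for C4b (1.74), C3 (1.55), Clec7a (3.28), Itgax (2.44), H2-Q6 (1.93), H2-Q7 (1.55), mt-Co2 (1.07), Ggta1 (0.79), Lama4 (0.59), Plin4 (1.97), Igfbp2 (-1.61), Rpl12 (-0.35), Rpl36a (-0.43) and Rps21 (-0.47), each value being Brain minus the other tissues. With edgeR the difference passed for C3, C4b, Clec7a, Ggta1, Igfbp2 and Plin4, and not for H2-Q6, H2-Q7, Itgax, Lama4, Rpl12, Rpl36a, Rps21 and mt-Co2 (adjusted p from 0.054 to 0.19).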

How the results depend on the processing

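The count of 1215 genes past the threshold (538 higher, 677 lower) was 1273 with edgeR and TMM, 1266 with edgeR and RLE, 1409 with DESeq2, 1079 with limma-voom, 1227 on TMM-scaled reads, 1206 and 1209 with pseudocounts of 0.1 and 5, 940 without a filter and 1131 with a minimum count of 50. With the 30-month and 6-month libraries alone, which leaves fewer samples, it was 727 (342 higher, 385 lower). Leaving out 1 library gave 812 to 1139 genes, 370 to 505 higher and 423 to 634 lower; the lower count was 423 or 427 with replicate 3 or replicate 4 at 30 months left out, and 449 with replicate 3 at 6 months left out. With GC content and length corrected, chosen after seeing the data, it was 1349, and 934 when 30-month replicate 3 was also left out. The 152 genes that differed from the other tissues were 67 with edgeR, 160 and 208 with pseudocounts of 0.1 and 5, 144 with both ages alone and 104 to 134 when 1 Brain library was left out. The cause of these differences was not tested, except that fewer samples enter the fits that leave libraries out.

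With the replicate number as a block (replicate block) 1416 genes passed, and 153 against the other tissues. Libraries of the same number at 30 and 6 months had correlations of their deviations from -0.12 to 0.07, and not every library correlated best with its own number. With 4 libraries per age these values cannot show whether the numbers pair the libraries. Of 129 genes named 124 kept their direction and side of the threshold under the block, 125 under edgeR with TMM, 125 under DESeq2 (which gave no adjusted p for 1), 122 under the GC and length correction and 114 with both ages alone, and no gene called among them changed direction under these alternatives. Depth was lowest in 6-month replicate 4, and low genes such as Clec7a rest on few reads at 6 months.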

Other observations

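Clustered protocadherins, cell-surface proteins whose many isoforms give neurons their identity, were chosen for description after their values were seen. Of 57 tested 14 rose and 2 fell, with a median of 0.19. In the beta cluster 10 of 21 rose and 0 fell, with a median of 0.42. In the gamma cluster 4 of 22 rose and 1 fell, and in the alpha cluster 0 of 14 rose and 1 fell. Pcdhb9 had 481, 425, 509 and 478 normalised reads at 30 months, against 263, 251, 259.7 and 293 at 6 months (0.82 ± 0.08, adjusted p = 1.4e-06). All old libraries were higher, as they were for Pcdhb6 (0.97 ± 0.14) and Pcdhb2 (1.06 ± 0.22). The median of the beta cluster was 0.13 at 15 months and 0.31 at 24 months against the same 6-month libraries, and 10 of 21 rose with GC content and length corrected. The genes are near-identical in part, so that reads can be split between copies in an unknown way.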
